A study of Mus musculus with 2 samples.

Results

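Interferon-stimulated genes are the genes that cells switch on when an interferon binds its receptor, and 38 of them, listed by gene symbol and chosen for what they are known to do, were followed through the cell classes of the mouse retinal pigment epithelium (RPE) and choroid. Of these 38 genes, 37 had a row among the 32285 genes of the deposited count matrices. The GTPase Mx1 was not measured here. The genes were split into 21 measured core genes, which are known for low levels at rest and a strong response to interferon (the Ifit, Oas and Oasl genes, Isg15, Irf7, Rsad2, Usp18, Ifi44, Ifih1, Dhx58, Zbp1, Rtp4, Herc6 and Cmpk2), and 16 others that many cells also express at rest (Isg20, Irf9, Stat2, Bst2, Ifitm3, Ifi27l2a, Ifi35, Xaf1, Parp14, Trim30a, Gbp2, Gbp3, Gbp7, Sp100, Samhd1 and Ly6a). The 2 questions were at what level each cell class held them, and whether a few cells carried the sums.

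The study compared 2 libraries from mice 10 weeks of age, and each library pooled the tissue of 1 male and 1 female. Tsc1 flox mice carried the conditional Tsc1 allele (Tsc1tm1Djk/J), and no Cre is named for them. Tsc1 RPE KO mice carried the same allele together with Best-Cre, a Cre line that the labels call specific to the RPE, so the leukocytes, fibroblasts and vessels in which most of the counts below lie are not the labelled site of deletion. The posterior eye cups were digested with enzymes after the neuroretina had been taken off, and living cells were collected by flow sorting before droplet capture with 3′ chemistry. With 1 library per genotype there is no replicate and no test between genotypes. Every interval below is a 95% interval that covers counting error only, so genotype, the mice pooled and the handling of each library cannot be told apart.

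Type I and type III interferons act through receptors coupled to Janus kinases. Signalling then brings STAT2 and IRF9 into a complex that binds the interferon-stimulated response element, a paired GAAA sequence, in front of the genes it switches on. The products block viruses at several steps: some bind or cut foreign RNA, some modify proteins, some stop entry or budding at membranes, and a few, such as IRF7, feed back on interferon production. Monocytes and plasmacytoid dendritic cells are known for high levels of parts of this programme even without infection.

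The response element was looked for in the promoters, because the choice of genes did not use sequence. The RefSeq promoter table (mouse build GRCm38.p6, 250 bases before to 50 bases after each start) held 29 of the 38 genes, and lacked Oas2, Mx1, Usp18, Ifi27l2a, Dhx58, Zbp1, Rtp4, Parp14 and Ly6a. The motif of GAAA, any 2 bases and GAAA again, searched on both strands, was present in 16 of the 29 promoters (55.2%) and in 1079 of all 27025 promoters of that length (3.99%). It was in 9 of 16 core genes and in 7 of 13 others. A match is a run of letters and not a measured binding site. The 6 promoters below are of genes named in the results that follow, and all 6 hold the motif. Irf7 and Ifit2, which also lead some of those results, do not hold it in this window and are not shown. Ifit3 and Ifit3b, neighbours on the chromosome, share almost the same run. Each promoter shown is the 190 bases that end just before the start, written 5′ to 3′ in the direction of the gene. The motif matches are in capitals, and overlapping matches are run together.
Isg15 (chr4:156200819-156201008, minus strand): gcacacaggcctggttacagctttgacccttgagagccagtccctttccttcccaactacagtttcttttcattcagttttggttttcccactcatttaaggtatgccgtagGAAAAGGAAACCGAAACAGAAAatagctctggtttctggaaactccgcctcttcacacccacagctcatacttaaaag
Ifit1 (chr19:34640699-34640888, plus strand): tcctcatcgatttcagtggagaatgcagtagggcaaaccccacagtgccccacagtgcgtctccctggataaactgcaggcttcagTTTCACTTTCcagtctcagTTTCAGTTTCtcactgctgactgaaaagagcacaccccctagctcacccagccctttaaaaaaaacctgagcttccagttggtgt
Ifit3 (chr19:34583339-34583528, plus strand): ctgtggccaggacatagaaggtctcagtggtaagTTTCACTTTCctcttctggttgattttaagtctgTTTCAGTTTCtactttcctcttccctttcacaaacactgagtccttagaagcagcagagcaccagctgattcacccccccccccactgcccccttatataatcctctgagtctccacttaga
Ifit3b (chr19:34607767-34607956, plus strand): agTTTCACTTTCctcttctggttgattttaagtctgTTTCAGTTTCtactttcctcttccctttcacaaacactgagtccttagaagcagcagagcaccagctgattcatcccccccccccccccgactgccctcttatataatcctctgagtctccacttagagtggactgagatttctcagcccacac
Rsad2 (chr12:26456453-26456642, minus strand): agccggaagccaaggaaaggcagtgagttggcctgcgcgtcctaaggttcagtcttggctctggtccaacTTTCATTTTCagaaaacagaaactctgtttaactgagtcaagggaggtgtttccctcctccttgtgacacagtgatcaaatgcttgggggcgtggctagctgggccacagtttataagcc
Bst2 (chr8:71537473-71537662, minus strand): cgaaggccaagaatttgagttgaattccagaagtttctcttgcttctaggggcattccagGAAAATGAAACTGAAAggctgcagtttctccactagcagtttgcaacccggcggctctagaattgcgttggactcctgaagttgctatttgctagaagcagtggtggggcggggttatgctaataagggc

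Isg15 held 3 overlapping matches that began 78, 72 and 66 bases before the start, on the strand of the gene. Ifit1 held 2 on the other strand, at 104 and 85 bases. In Ifit3 the same pair of matches lay at 156 and 122 bases and in Ifit3b at 188 and 154 bases, so the spacing within the pair was the same in both. Rsad2 held 1 match at 120 bases, and Bst2 held 2 overlapping ones at 130 and 124 bases. The promoters of Ifit2, Isg20, Irf7, Irf9, Oasl1, Oasl2, Ifi44, Ifi35, Xaf1, Sp100, Samhd1, Herc6 and Cmpk2 did not hold these letters in this window. With a shorter motif that leaves off the last base (GAAANNGAA), 17 of the 29 promoters held a match against 9.76% of all promoters.

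Several of the genes are neighbours. On mm10, the build of the files, with gene models of GENCODE, the 5 Ifit genes lay together at chr19:34550694-34650009. Rsad2 (chr12:26442746-26456452, minus strand) and Cmpk2 (chr12:26469204-26479837, plus strand) lay head to head, and Gbp7, Gbp3 and Gbp2 lay at chr3:142530342-142638008. Close copies limit what can be told apart: the transcripts of Ifit3 and Ifit3b were 98.0% identical over 1697 aligned bases, and those of Oas1a and Oas1g, a gene outside the list, 97.5% over 1860. How the authors' counting split reads between such copies is not given in the sources used here, so the levels of Ifit3, Ifit3b and Oas1a are uncertain relative to their copies. Exons of Irf9 and Rtp4 also overlap exons of another annotated gene on the same strand.

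After filtering, 1525 cells of the Tsc1 flox library and 1849 of the Tsc1 RPE KO library were kept, with medians of 4532 and 4614 UMIs (unique molecular identifiers, 1 per captured transcript) and 1750 and 1789 genes, and 2 cell barcodes occurred in both libraries. Cells were clustered without the 37 genes, and clusters were named by marker genes, as X-like, into 13 classes. The 6 classes with at least 50 cells in each library were classical monocyte-like (113 and 188 cells, Tsc1 flox first here and throughout), nonclassical monocyte-like (77 and 369), B cell-like (412 and 319), T cell-like (335 and 368), NK cell-like (176 and 124) and fibroblast-like (266 and 176). The smaller ones were endothelial-like (41 and 48), mural-like (9 and 6), mast cell-like (13 and 11), RPE-like (12 and 45), rod-like (42 and 176) and erythroid-like cells (10 and 2) and a dendritic cell cluster (19 and 17). That cluster passed the markers of plasmacytoid dendritic cells but was mixed: 13 and 8 of its cells held Cd209a, Flt3 or Clec10a, markers of conventional dendritic cells, without Siglech. The classical monocyte-like class was led by F13a1, Lyz2 and Chil3 but also by Ifi202b, Ifi207 and Ifi211, interferon-inducible genes outside the list that were not taken out of the clustering. Tsc1 itself was seen as 180 and 191 UMIs over all cells and as 0 in the RPE-like cells of both libraries, where a count of 0 allows up to 93.5 and 26.0 CPM, and a 3′ tag does not report on a deletion inside the gene, so it checks no label.

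Without any stimulus named in the labels, the core genes were highest in the classical monocyte-like class in both libraries. A level here is the UMIs of a gene or list over all UMIs of that class, scaled to 1e+06 (CPM). Because 3′ counting takes 1 tag per transcript, no scaling by length was applied. The 21 core genes together made up 1977 CPM (interval 1895 to 2061) and 1169 CPM (1119 to 1221) of classical monocyte-like cells. They made up 611 and 493 CPM in nonclassical monocyte-like cells and 643 and 809 CPM in fibroblast-like cells, and the intervals of these classes overlapped in the Tsc1 flox library. T cell-like cells stood at 421 and 517 CPM, NK cell-like cells at 255 and 400.3 CPM and B cell-like cells at 251 and 191 CPM. Endothelial-like cells held 295 and 708 CPM, and rod-like cells 25.9 and 48.0 CPM from 3 and 29 UMIs. Of the 6 large classes the classical monocyte-like one was highest in both libraries, and B cell-like cells were lowest, in the Tsc1 flox library by less than the counting interval against NK cell-like cells. Barcodes with 10 to 100 UMIs, taken to hold free RNA, held the core genes at 569 and 492 CPM, above B and NK cell-like cells, and the part of free RNA in the class levels was not tested.

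Summed over the 16 other genes, both monocyte classes stood above the other 4 large classes. Ifitm3 and Ifi27l2a made up most of the sum in both monocyte classes, and single genes such as Sp100, Ly6a and Trim30a did not follow that order. Together the 16 genes made up 11914 and 9938 CPM of classical monocyte-like cells and 7789 and 5680 CPM of nonclassical monocyte-like cells. In fibroblast-like cells their sum was 3491 and 4187 CPM. B cell-like cells (2308 and 2163 CPM) and T cell-like cells (2267 and 2428 CPM) were close to each other, and NK cell-like cells were lowest of the large classes at 1069 and 1261 CPM. The small dendritic cell cluster, at 6121 and 8035 CPM, was above nonclassical monocyte-like cells in the Tsc1 RPE KO library. In 29 of the 37 genes the class with the highest level was the same in both libraries, among the 6 large classes. It was the classical monocyte-like class for 22, fibroblast-like for Ifit1, Ifit3b, Gbp3 and Ly6a, B cell-like for Sp100, T cell-like for Gbp2 and NK cell-like for Gbp7. Of the other 8, Ifit2, Ifit3, Ifit1bl1, Isg15, Usp18, Ifi44 and Herc6 were highest in classical monocyte-like cells of the Tsc1 flox library and in T cell-like or fibroblast-like cells of the other, and Irf9 changed between fibroblast-like and classical monocyte-like cells.

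Of the membrane proteins, Ifitm3, which restricts viruses in endosomes, was the most abundant gene of the list with 29172 UMIs over both libraries. Ifitm3 stood at 6139 and 5236 CPM in classical monocyte-like cells, 4441 and 3167 in nonclassical monocyte-like cells, 1529 and 1762 in fibroblast-like cells, 16.5 and 14.4 in T cell-like cells, 12.7 and 14.4 in B cell-like cells and 9.43 and 8.17 in NK cell-like cells. Every one of the 113 Tsc1 flox cells and 187 of the 188 Tsc1 RPE KO cells of the classical monocyte-like class held a UMI of it, so its high level was spread over the class. The free RNA had Ifitm3 at 1483 and 2024 CPM, far above the lymphocytes, of which 3.41% to 5.96% held a UMI. Endothelial-like and mural-like cells held it at 1354 and 1546 and at 1776 and 1989 CPM.

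Ifi27l2a was present in both B and T cell-like cells but nearly missing from NK cell-like cells. Ifi27l2a stood at 3226 and 2438 CPM in classical monocyte-like cells, 1662 and 923 in nonclassical monocyte-like cells, 627 and 692 in fibroblast-like cells, 837 and 932 in T cell-like cells, 772 and 771 in B cell-like cells and 3.54 and 27.8 in NK cell-like cells. The gap between T and NK cell-like cells, 837 against 3.54 CPM and 932 against 27.8 CPM, was seen in each library separately. Free RNA held it at 920.4 and 812 CPM. Endothelial-like cells had it at only 5.79 and 39.6 CPM, although fibroblast-like cells of the same preparation had it at 627 and 692 CPM.

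Bst2, the tether that holds budding virions at the cell surface, was highest in the dendritic cell cluster at 1783 and 1569 CPM. Within that cluster the level split by marker: cells that held Siglech together with a conventional marker had Bst2 at 4463 and 4034 CPM (5 and 4 cells), and cells with a conventional marker and no Siglech at 734 and 367 CPM (13 and 8 cells). Bst2 stood at 343 and 269 CPM in classical monocyte-like cells, 122 and 111 in nonclassical monocyte-like cells, 157 and 205 in fibroblast-like cells, 145 and 114 in T cell-like cells, 75.0 and 66.8 in B cell-like cells and 53.0 and 68.6 in NK cell-like cells. Endothelial-like cells held 417 and 317 CPM. Ly6a, the stem cell antigen of mouse blood and stroma, was a gene of fibroblast-like and endothelial-like cells. Levels of Ly6a, in CPM, were 411 and 665 in fibroblast-like cells, 178 and 189 in B cell-like cells, 118 and 166 in T cell-like cells, 27.7 and 15.3 in nonclassical monocyte-like cells, 12.5 and 27.6 in classical monocyte-like cells and 2.36 and 1.63 in NK cell-like cells, and endothelial-like cells held 573 and 498 CPM. It was near 0 in NK cell-like cells and at 0 UMIs in rods of both libraries. Rtp4, a transport protein for cell surface receptors, was, of the large classes, highest in classical monocyte-like cells, followed by fibroblast-like cells. Rtp4 stood at 128 and 82.3 CPM in classical monocyte-like cells, 46.1 and 19.4 in nonclassical monocyte-like cells, 71.2 and 67.5 in fibroblast-like cells, 34.5 and 33.3 in T cell-like cells, 19.4 and 15.9 in B cell-like cells and 17.7 and 26.1 in NK cell-like cells.

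Among the enzymes that act on nucleotides and nucleic acids, Samhd1, which breaks down deoxynucleotides, was expressed by every large class. Samhd1 stood at 954 and 1001 CPM in classical monocyte-like cells, 919 and 828 in nonclassical monocyte-like cells, 245 and 279 in fibroblast-like cells, 274 and 294 in T cell-like cells, 434 and 408 in B cell-like cells and 161 and 191 in NK cell-like cells. The B cell-like level was above the T and NK cell-like levels in each library. Isg20, an exonuclease, was highest in classical monocyte-like cells of the large classes (55.4 and 47.8 CPM) and stood at 400.3 CPM (interval 313 to 505) in the 10 erythroid-like cells of the Tsc1 flox library, with 177 CPM in the 2 of the other. Rsad2, which makes an antiviral nucleotide, stood at 111 and 45.5 CPM in classical monocyte-like cells and from 2.28 to 14.8 CPM in the other 5 large classes. Its level in erythroid-like cells was 180.4 and 106 CPM. The 106 CPM came from 3 UMIs in 1 of 2 cells, as few as the limit used here for a count of 0. Cmpk2, a nucleotide kinase and the neighbour of Rsad2, was at 51.8 and 21.9 CPM in classical monocyte-like cells and, among B cell-like ones, at 27.8 and 12.1 CPM.

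The transcription factor Irf7, which drives interferon genes and is itself induced, led the core genes with 1576 UMIs. Irf7 stood at 328 and 240.5 CPM in classical monocyte-like cells, 157 and 83.7 in nonclassical monocyte-like cells, 51.5 and 59.2 in T cell-like cells, 41.2 and 75.2 in NK cell-like cells, 36.9 and 37.97 in B cell-like cells and 20.9 and 41.5 in fibroblast-like cells. Both monocyte classes were above lymphocytes and fibroblasts in both libraries. In Tsc1 RPE KO the nonclassical class was above NK cell-like cells by less than the counting interval (83.7 against 75.2 CPM). Irf9, part of the complex that binds the response element, was more even across classes. Levels of Irf9, in CPM, were 77.5 and 71.4 in B cell-like cells, 78.2 and 80.5 in fibroblast-like cells, 74.2 and 90.3 in classical monocyte-like cells, 73.7 and 69.9 in nonclassical monocyte-like cells, 72.5 and 64.1 in T cell-like cells and 38.9 and 83.3 in NK cell-like cells. Stat2, its partner, ranged from 8.25 CPM in NK cell-like to 55.4 CPM in classical monocyte-like cells of the Tsc1 flox library.

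Of the sensors of foreign nucleic acid, Zbp1, which binds DNA and RNA in the Z form, was a gene of leukocytes. Zbp1 stood at 161 and 162 CPM in classical monocyte-like cells, 99.1 and 139 in nonclassical monocyte-like cells, 68.0 and 80.0 in T cell-like cells, 51.9 and 86.6 in NK cell-like cells, 25.4 and 26.6 in B cell-like cells and 3.48 and 14.3 in fibroblast-like cells. It was at 0 UMIs in endothelial-like cells of both libraries, where a count of 0 allows up to 17.4 and 16.99 CPM, so the class with 1354 and 1546 CPM of Ifitm3 lacked a detectable level of Zbp1. Ifih1 and Dhx58, helicases of double-stranded RNA, were lower: 71.5 and 44.9 and 34.0 and 35.1 CPM in classical monocyte-like cells, respectively. Fibroblast-like cells held Ifih1 at 32.1 and 36.4 CPM.

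The IFIT proteins, which bind viral RNA and block its translation, were the group in which fibroblasts stood beside monocytes. Ifit3 stood at 146 and 39.7 CPM in classical monocyte-like cells, 103 and 156 in fibroblast-like cells, 25.5 and 41.8 in T cell-like cells, 21.2 and 12.1 in B cell-like cells, 8.25 and 16.3 in NK cell-like cells and 4.61 and 14.8 in nonclassical monocyte-like cells. Levels of Ifit1, in CPM, were 93.8 and 104 in fibroblast-like cells, 44.7 and 19.0 in classical monocyte-like cells, 30.02 and 51.2 in T cell-like cells, 7.87 and 3.04 in B cell-like cells, 9.43 and 8.17 in NK cell-like cells and 6.91 and 1.02 in nonclassical monocyte-like cells. Summed over the 5 genes, fibroblast-like cells held 254 and 339 CPM, classical monocyte-like cells 322 and 94.4 CPM and nonclassical monocyte-like cells 23.0 and 24.5 CPM. Ifit1bl1 differed from the rest: it stood at 0 UMIs in fibroblast-like cells of both libraries, which allows up to 2.61 and 3.89 CPM, against 40.2 and 6.33 CPM in classical monocyte-like and 21.5 and 17.4 CPM in T cell-like cells. Ifit2 was between 7.14 and 66.1 CPM in monocyte-like classes, and Ifit3b was highest in fibroblast-like cells at 29.5 and 61.0 CPM.

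Isg15, the ubiquitin-like protein that is attached to targets after interferon, was high in classical monocyte-like and fibroblast-like cells. Isg15 stood at 247 and 118 CPM in classical monocyte-like cells, 97.3 and 148 in fibroblast-like cells, 51.0 and 69.1 in T cell-like cells, 40.1 and 85.0 in NK cell-like cells, 20.7 and 13.3 in nonclassical monocyte-like cells and 14.5 and 14.4 in B cell-like cells. Usp18 takes ISG15 off again and dampens the receptor, and Herc6 is the ligase that puts it on in mice. Usp18 stood at 64.3 and 16.7 CPM and Herc6 at 50.9 and 28.2 CPM in classical monocyte-like cells, and T cell-like cells held them at 17.5 and 16.4 and 30.02 and 33.3 CPM.

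The oligoadenylate synthetases, which sense double-stranded RNA and switch on RNase L, and the related Oasl genes were genes of monocytes, with 1 exception. Oas1a stood at 105 and 94.9 CPM in classical monocyte-like cells, 50.7 and 33.7 in nonclassical monocyte-like cells, 0 and 3.89 in fibroblast-like cells, 11.5 and 11.9 in T cell-like cells, 7.87 and 7.59 in B cell-like cells and 8.25 and 16.3 in NK cell-like cells. Oas1a gave 0 and 3 UMIs in fibroblast-like cells and Oas3 gave 0 in both libraries, which allows up to 2.61 and 3.89 CPM. Oasl2 was the exception. Oasl2 stood at 181 and 109 CPM in classical monocyte-like cells, 75.6 and 83.1 in fibroblast-like cells, 25.3 and 24.5 in nonclassical monocyte-like cells, 14.01 and 7.46 in T cell-like cells, 5.45 and 9.87 in B cell-like cells and 4.71 and 6.54 in NK cell-like cells. Oas2 and Oasl1 were lower, with 109 and 104 UMIs over both libraries.

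The guanylate-binding proteins, GTPases that attack the vacuoles of microbes, had their own order. Gbp7 was led, among the large classes, by NK cell-like cells at 112 and 131 CPM and T cell-like cells at 103 and 104 CPM, with the smaller endothelial-like class above both at 139 and 153 CPM and B cell-like cells at only 6.05 and 8.35 CPM. Gbp2 was highest in T cell-like cells (40.5 and 35.3 CPM) and fibroblast-like cells (37.4 and 35.1 CPM). Gbp3 was low, from 7.26 to 35.1 CPM in the large classes.

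Of the remaining genes, Sp100, a nuclear body protein, and Trim30a separated leukocytes from fibroblasts. Levels of Sp100, in CPM, were 368 and 324 in B cell-like cells, 318 and 314 in NK cell-like cells, 316 and 299.8 in T cell-like cells, 282 and 205 in classical monocyte-like cells, 138 and 127 in nonclassical monocyte-like cells and 34.8 and 41.5 in fibroblast-like cells. Trim30a stood at 253 and 186 CPM in classical monocyte-like cells, 148 and 88.8 in B cell-like cells, 105 and 121 in NK cell-like cells, 87.6 and 109 in T cell-like cells, 73.7 and 95.9 in nonclassical monocyte-like cells and 6.08 and 11.7 in fibroblast-like cells. Parp14, an ADP-ribosyltransferase, was highest in classical monocyte-like cells among the large classes, and Ifi35 differed less between classes. Parp14 stood at 163 and 144 CPM in classical monocyte-like cells, 96.8 and 120.4 in nonclassical monocyte-like cells, 66.6 and 49.4 in B cell-like cells, 65.5 and 70.6 in T cell-like cells, 61.3 and 75.2 in NK cell-like cells and 56.5 and 68.8 in fibroblast-like cells. Ifi35 stood at 113 and 94.4 CPM in classical monocyte-like cells, 90.7 and 91.5 in NK cell-like cells, 74.1 and 86.0 in T cell-like cells, 66.0 and 80.5 in B cell-like cells, 66.8 and 63.3 in nonclassical monocyte-like cells and 63.4 and 88.3 in fibroblast-like cells. Xaf1, a partner of an apoptosis inhibitor, stood at 155 and 103 CPM in classical monocyte-like cells and between 31.1 and 89.6 CPM in the other large classes, and Ifi44 was nearly missing, with 55 UMIs over both libraries.

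RPE-like cells, the labelled site of the Tsc1 deletion, gave few counts. The 12 cells of the Tsc1 flox library held 10 UMIs of the 37 genes (312 CPM, interval 149 to 573) and the 45 of the Tsc1 RPE KO library held 99 (858 CPM, 698 to 1045), a ratio of 2.75 (1.44 to 5.92). For the 21 core genes, from 3 and 20 UMIs, the ratio was 1.85 (0.550 to 9.75). Both are below the free RNA of the same libraries, 4267 and 4554 CPM, and the part of free RNA in them was not tested. The 8 RPE markers made up 139372 and 128655 CPM of these cells. Bst2 led with 5 and 18 UMIs, 156 CPM in both libraries. Ifit3 gave 2 and 6 UMIs. Ifitm3 gave 0 and 10 UMIs, and 0 UMIs allows up to 93.5 CPM. In 1 Tsc1 RPE KO barcode 31 UMIs of leukocyte markers were seen, against at most 2 in the other 44. Without it the list stood at 797 CPM.

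Few cells carried the core sums. In classical monocyte-like cells 12 of 113 Tsc1 flox cells and 26 of 188 Tsc1 RPE KO cells together held 50% of all core UMIs, whereas it took 46 and 71 cells to reach 50% of all UMIs. The top 10% of cells by core UMIs held 51.0% and 44.4% of the core UMIs of this class, against 15.9% and 15.8% of all UMIs in the top 10% by depth. The 16 other genes were close to depth, with 19.8% and 19.4% in the top 10%. In these shares the contrast between the lists was present in every large class. The top 10% held 40.0% to 67.4% of core UMIs, and 19.4% to 35.01% of the UMIs of the other genes. A list with fewer UMIs per cell is held by fewer cells for that alone. B cell-like cells, in which 258 of 412 and 187 of 319 cells held no core UMI, reached 67.4% and 52.0%.

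**Figure D1:**
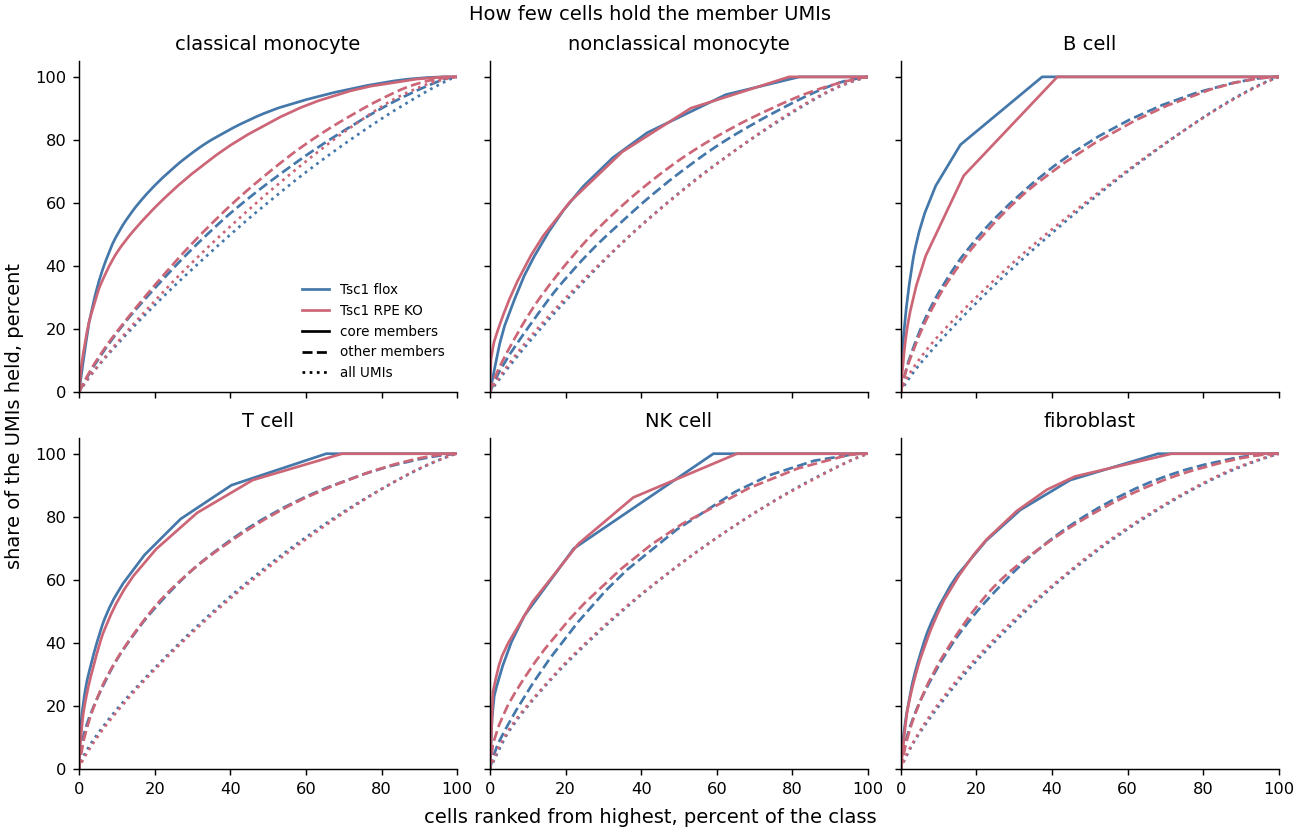
Cumulative share of UMIs (y axis, percent) against the share of cells ranked from highest to lowest (x axis, percent) in the 6 large classes, for core genes (solid), the 16 other genes (dashed) and all UMIs (dotted) in the 2 libraries (colours). The solid curves rise first in every panel, and in classical monocyte-like cells they reach 51.0% and 44.4% at the top 10% of cells.

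The spread was wider than counting error gives at equal depth. Each cell was thinned to 1000 UMIs, and the variance of its core count over the mean, which is 1 for counting error alone, was 5.77 and 2.90 in classical monocyte-like cells. It was 2.59 and 4.96 in fibroblast-like, 2.04 and 2.80 in T cell-like, 2.31 and 1.28 in B cell-like, 2.63 and 1.36 in NK cell-like and 1.42 and 2.35 in nonclassical monocyte-like cells. All 12 core values were above 1, but no interval was set on them, so the lowest (1.28, 1.36 and 1.42) are less certain. For the 16 other genes the same measure was 3.08 and 2.34 in classical monocyte-like and 1.54 and 0.844 in NK cell-like cells. It was 3.39 and 3.51 in fibroblast-like and 2.11 and 2.70 in T cell-like cells. B cell-like cells gave 2.51 and 2.25, and nonclassical monocyte-like cells 1.63 and 2.25. Core values were lower in B cell-like cells of both libraries, and in T cell-like, fibroblast-like and nonclassical monocyte-like cells of Tsc1 flox. The class holding the widest core spread was classical monocyte-like in the Tsc1 flox library and fibroblast-like in the Tsc1 RPE KO library.

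**Figure D2:**
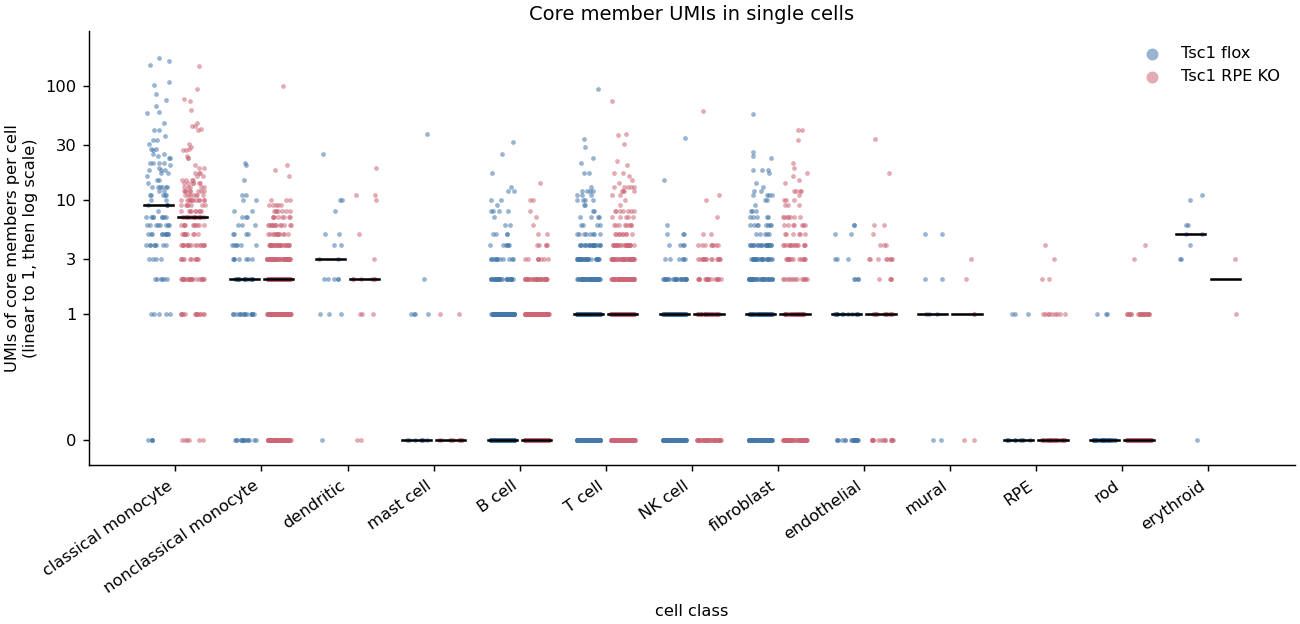
Core UMIs of each cell (y axis, symmetric log scale, unthinned) by cell class and library, with 1 point per cell and a black bar at the median. Medians are 9 and 7 UMIs in classical monocyte-like cells and 0 in B cell-like cells, and single cells reach 173 and 149 UMIs in the former.

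The cells with most core UMIs held many of the core genes at once. In the Tsc1 flox library it was a classical monocyte-like cell with 173 core UMIs of 19 different core genes among its 10359 UMIs, including 24 of Ifit3, 19 of Isg15 and 16 of Rsad2, with 81 UMIs of the chemokine Cxcl10 besides. The Tsc1 RPE KO library had a like cell with 149 core UMIs of 19 core genes, of which 29 were of Ifit3. The T cell-like class had cells with 94 and 73 core UMIs of 14 and 17 core genes, and the fibroblast-like class cells with 56 and 41 of 11 and 6. The core sum of mast cell-like cells in the Tsc1 flox library, 653 CPM against 48.9 CPM, came to 38 of 44 UMIs from 1 cell. These cells are the extremes of their classes and show the reach of the counts, not the usual level.

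Cells with many core genes on at once were counted after thinning to 1000 UMIs, as those with a UMI of at least 4 of the 21 core genes. They were 31 of 1525 Tsc1 flox cells (2.03%, Clopper-Pearson interval 1.39% to 2.87%) and 23 of 1849 Tsc1 RPE KO cells (1.24%, 0.790% to 1.86%). Without thinning the same rule took 14.03% and 14.7% of cells. The cut lies in a falling tail: 30 and 28 cells held exactly 3 core genes and 14 and 12 exactly 4. Of the 31 and 23 cells, 15 and 7 were classical monocyte-like, 5 and 5 fibroblast-like, 3 and 7 T cell-like, 5 and 0 B cell-like, 1 and 3 nonclassical monocyte-like and 1 and 0 NK cell-like, so every large class had at least 1. The remaining 2 were 1 of the dendritic cell cluster and 1 endothelial-like cell. In classical monocyte-like cells the shares were 13.3% (7.62% to 20.9%) and 3.72% (1.51% to 7.52%). A count of 0 among 319 B cell-like cells allows up to 0.94%.

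These cells also held more of interferon-stimulated genes outside the list. A list of 50 such genes with a row, none of them among the 37, summed to 17456 CPM in the 15 many-core classical monocyte-like cells of the Tsc1 flox library and to 8224 CPM in the other 98. In the Tsc1 RPE KO library it was 13627 CPM in 7 cells and 7122 CPM in 181. T cell-like cells gave 10576 against 4479 CPM and 12011 against 4564 CPM. The median depth of the many-core classical monocyte-like cells, 9694 and 9309 UMIs, was near that of the others, 9753.5 and 9443. The exception was the single many-core cell of the dendritic cell cluster, at 5148 against 6220 CPM.

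The chemokine gene Cxcl10 gave 142 UMIs in the 15 many-core classical monocyte-like cells of the Tsc1 flox library and 1 UMI in the 98 others, but 81 of the 142 came from the 1 cell named above. The 16 other genes of the list moved with the core: 18292 against 10994 CPM in the Tsc1 flox library and 15396 against 9693 CPM in the other.

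**Figure D3:**
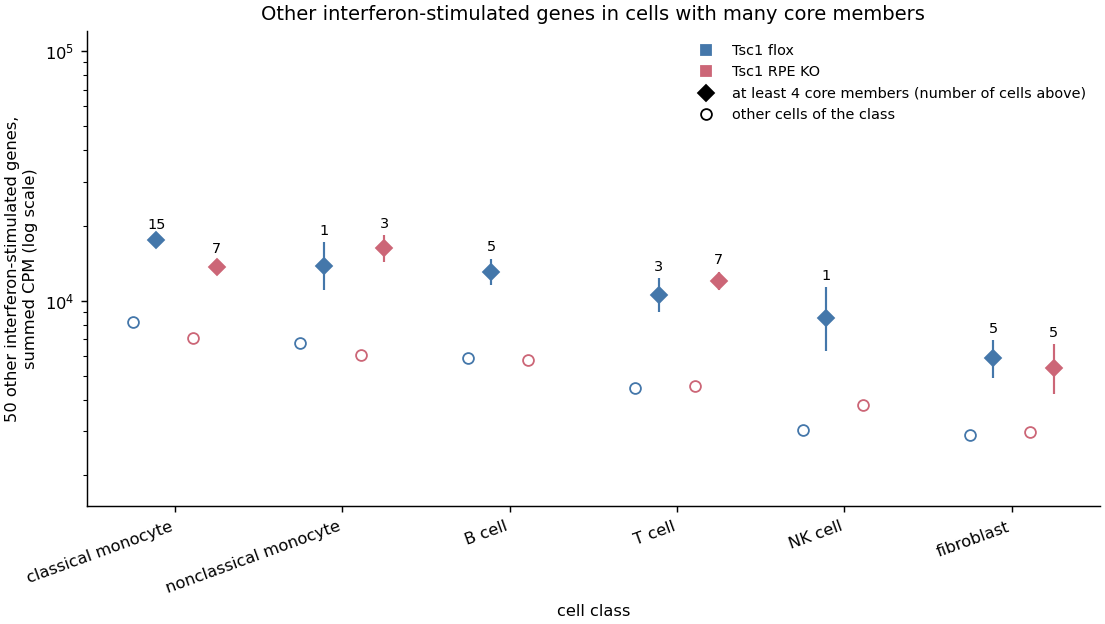
Summed level (CPM, y axis) of the 50 interferon-stimulated genes outside the list on a log axis, in many-core cells (diamonds) and in the other cells (open circles) of the 6 large classes and 2 libraries, with the number of many-core cells above each diamond and exact Poisson intervals as bars. Diamonds lie above circles wherever a large class has many-core cells, from 5377 against 2981 CPM in fibroblast-like cells to 17456 against 8224 CPM in classical monocyte-like cells.

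Cells with Ifit3 held other core genes more often than cells without it, though not in every class. Over all cells thinned to 1000 UMIs, Isg15 was found in 14 of 51 Tsc1 flox cells with Ifit3 (27.5%) and in 50 of 1474 without it (3.39%). In the Tsc1 RPE KO library these were 9 of 50 (18.0%) and 76 of 1799 (4.22%). Ifit1 followed with 11 of 51 against 19 of 1474 and 11 of 50 against 33 of 1799, and Rsad2 with 7 of 51 against 14 of 1474 and 6 of 50 against 14 of 1799. Usp18 was in 7 of 51 against 20 of 1474 and in 4 of 50 against 15 of 1799. Irf7 was in 13 of 51 against 67 of 1474 and in 5 of 50 against 124 of 1799. Zbp1 was in 6 of 51 against 54 of 1474 and in 9 of 50 against 119 of 1799. The intervals with and without Ifit3 overlapped for Irf7 in Tsc1 RPE KO and for Zbp1 in Tsc1 flox. Over all cells the genes also share the classes in which they are high. Within fibroblast-like cells Ifit1 was in 6 of 21 cells with Ifit3 and 9 of 245 without, and in the Tsc1 RPE KO library in 7 of 19 and 13 of 157. Within classical monocyte-like cells Isg15 was in 7 of 12 with Ifit3 and 13 of 101 without in the Tsc1 flox library. In the other library it was in 0 of 4 and 14 of 184. Within T cell-like cells Zbp1 was in 0 of 6 with Ifit3 and 19 of 329 without, and in 1 of 9 and 30 of 359. Irf7 was there in 1 of 6 and 11 of 329, and in 0 of 9 and 25 of 359.

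Between the libraries, the classical monocyte-like class held less of the core genes in Tsc1 RPE KO: the ratio of 1169 to 1977 CPM was 0.591 (interval 0.557 to 0.628). A gene was called different when it had at least 50 UMIs over both libraries in the class, its ratio was at least 1.5 either way and its interval left out 1. Of 33 genes of the list measured in this class, 14 were called lower and 1 higher, where 4.35% of all 5682 measured genes were called lower and 6.02% higher. The count of lower genes is well over that background and the count of higher ones is not. The median log2 ratio was -0.45 for the 33 genes and 0.01 for all measured genes. Lower were all 4 measured Ifit genes, all 3 genes of the ISG15 system, Oasl2, Rsad2, Cmpk2, Ifih1, Rtp4, Xaf1 and Gbp7, and higher was Ly6a. Ifit3b, Oasl1, Ifi44 and Gbp2 had under 50 UMIs in the class and were not compared.

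Ifit1bl1, Usp18, Ifit3 and Ifit2 had the lowest ratios among those called. Ifit1bl1 was 6.35-fold lower (interval 3.24 to 13.6), from 40.2 to 6.33 CPM, Ifit3 3.67-fold lower (interval 2.75 to 4.94), from 146 to 39.7 CPM, and Ifit2 3.02-fold lower (interval 2.02 to 4.60). Ifit1 was 2.35-fold lower (interval 1.49 to 3.77). Usp18 was 3.86-fold lower (interval 2.47 to 6.16) and Isg15 2.09-fold lower (interval 1.74 to 2.52). Rsad2 was 2.44-fold lower (interval 1.82 to 3.28) and Cmpk2 2.37-fold lower (interval 1.55 to 3.67). Several genes that were abundant in these cells had ratios nearer 1: Ifitm3 had a ratio of 0.853 (interval 0.826 to 0.880), Samhd1 of 1.05 (interval 0.972 to 1.13) and Zbp1 of 1.01 (interval 0.831 to 1.22). Irf7 had a ratio of 0.733 (interval 0.636 to 0.846) and Ifi27l2a of 0.756 (interval 0.723 to 0.790), both short of the fold needed. Ly6a was higher at 2.21 (interval 1.2 to 4.34), from 14 and 48 UMIs, and without its top cell in each library the ratio was 2.06 with an interval of 0.988 to 4.70 that holds 1. Ifih1 at 0.676 and Xaf1 at 0.668 also dropped short of the fold without their top cells.

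The make-up of this class differed between the libraries, which stands beside that ratio. At a finer resolution the class split into a classical monocyte-like cluster (62 and 49 cells), a macrophage-like cluster led by C1qb (46 and 73 cells) and a nonclassical monocyte-like cluster led by Hp and Treml4 (5 and 66 cells). The summed level of the 10 nonclassical monocyte markers in the class was 1844 and 3003 CPM, and that of the 9 classical markers 3664 and 2882 CPM, with no marker of either list at 0. The 10 NK cell markers stood at 15.2 and 208 CPM, with 6 and 3 of them at 0, and the part of these cells in the ratio was not tested. In the classical monocyte-like cluster the core ratio was 0.777 (interval 0.708 to 0.851), 27 genes were measured, Ifit3 and Usp18 were called lower and Irf9 higher, against 2.46% of 3053 genes lower and 2.98% higher. In the macrophage-like cluster the ratio was 0.624 (0.568 to 0.685), and of 22 measured genes Ifit2, Ifit3, Isg15, Rsad2 and Ifih1 were called lower and none higher, against 3.05% of 3316 genes lower and 5.16% higher. Ifit3 was thus lower in both clusters, at 130.4 and 26.2 CPM in the macrophage-like one and at 169 and 102 CPM in the classical one.

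**Figure D4:**
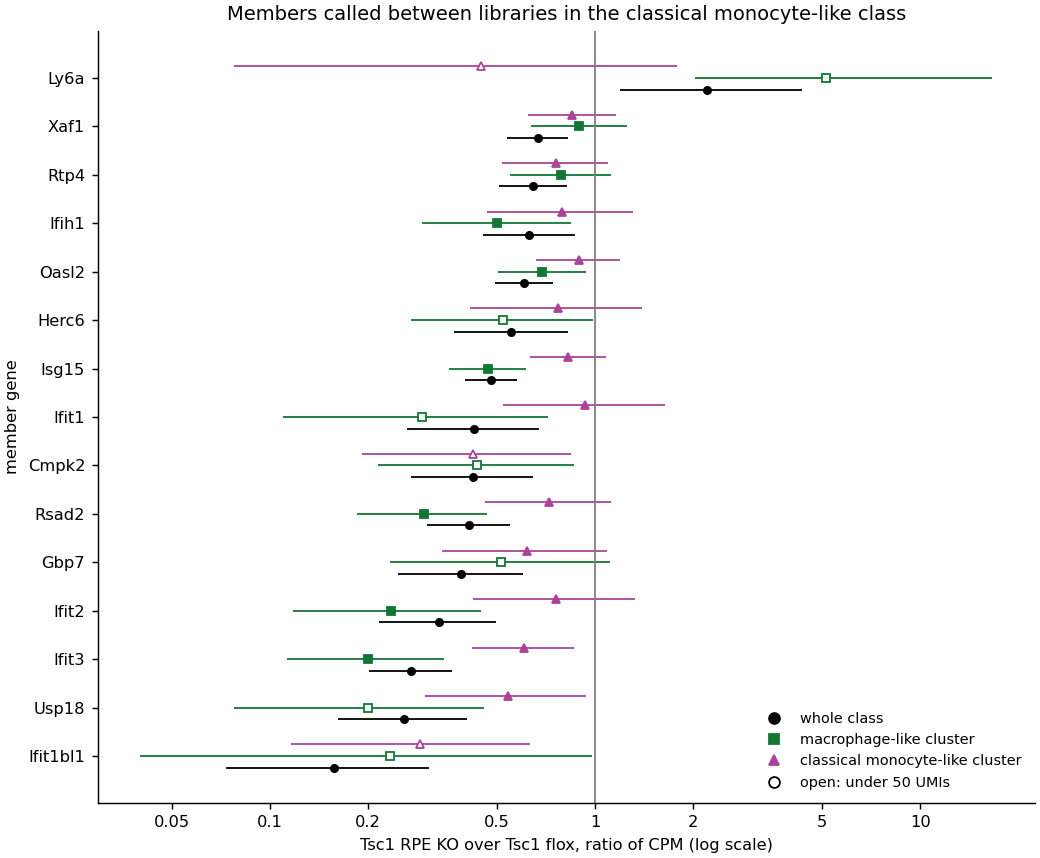
Ratio of Tsc1 RPE KO over Tsc1 flox (log axis, exact 95% intervals, counting error only) of the 15 genes called in the classical monocyte-like class, for the whole class and for its macrophage-like and classical monocyte-like clusters; open points have under 50 UMIs. Ifit3 lies below 1 in all 3, at 0.273, 0.201 and 0.604. Ly6a lies above 1 in the whole class and at 5.12 (2.03 to 16.6) in the macrophage-like cluster, from 5 and 41 UMIs. In the classical monocyte-like cluster it lies at 0.446, from 9 and 3 UMIs, with an interval of 0.0776 to 1.79 that holds 1.

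Without the cell with most core UMIs in each library the core ratio was 0.592 (interval 0.556 to 0.631), and without the top 1% of cells 0.610 (0.571 to 0.651), at levels of 1839 and 1089 CPM without the top cell. With the 15 and 7 many-core cells left out, the core ratio of the classical monocyte-like class was 0.859 (interval 0.794 to 0.929) in place of 0.591, but these cells were chosen by their core counts and were more in the Tsc1 flox library, so the ratio had to move toward 1. Of 27 genes then measured Ifit3 alone was called lower and Ly6a higher. The share of all measured genes called without many-core cells is not given, here or for the classes below. Many-core cells were 6 of 46 and 3 of 73 in the macrophage-like cluster and 9 of 62 and 3 of 49 in the classical monocyte-like one. Their 15 cells held 51.6% of the core UMIs of the class in the Tsc1 flox library and the 7 cells 23.0% in the other.

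In nonclassical monocyte-like cells 3 of 21 measured genes were called lower in Tsc1 RPE KO and none higher, where 3.99% of 5417 genes were called lower and 5.59% higher. Irf7 was 1.87-fold lower (interval 1.39 to 2.5), from 157 to 83.7 CPM. Ifi27l2a was 1.80-fold lower (interval 1.65 to 1.96) and Rtp4 2.38-fold lower (interval 1.31 to 4.19). The core ratio was 0.807 (interval 0.704 to 0.928). Markers of other cell types differed between the libraries as well: the 6 erythroid markers stood at 260.4 and 1373 CPM and the 9 classical monocyte markers at 376 and 807 CPM, with 2 and 2 and with 3 and 2 at 0, and their part in the result was not tested. At the finer resolution 96 of the 369 Tsc1 RPE KO cells formed a cluster that held no Tsc1 flox cell, and in the cluster shared by both libraries (77 and 270 cells) the core ratio was 0.838 (0.727 to 0.968) and that of Ifi27l2a 0.593 (0.541 to 0.650). Over all cells named nonclassical monocyte-like at that resolution, Ifi27l2a had a ratio of 0.672, short of the fold.

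In B cell-like cells 3 of 16 measured genes were called lower and none higher, where 2.6% of 5735 genes were called lower and 1.53% higher. Trim30a was 1.66-fold lower (interval 1.33 to 2.09), from 148 to 88.8 CPM, Xaf1 1.69-fold lower (interval 1.15 to 2.51) and Cmpk2 2.29-fold lower (interval 1.27 to 4.34). The core ratio of 0.764 (interval 0.650 to 0.895) became 0.970 (0.819 to 1.15) with the 5 many-core cells of the Tsc1 flox library left out, while the 3 calls stayed. Those cells were chosen by their core counts and lay only in that library, so the ratio had to rise. Of the 4 B cell-like clusters at the finer resolution 3 had core ratios under 1, at 0.637 (0.482 to 0.838), 0.587 (0.423 to 0.806) and 0.814 (0.572 to 1.15), and the smallest (73 and 48 cells) had 1.77 (1.18 to 2.67). Ifi27l2a, the gene of the list most abundant in B cell-like cells, had a level of 772 and 771 CPM there.

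T cell-like, NK cell-like and fibroblast-like cells had core ratios above 1. In T cell-like cells 2 of 26 measured genes were called higher and none lower, where 3.06% of 6558 genes were called higher and 1.37% lower: Ifit1 had a ratio of 1.71 (interval 1.23 to 2.39) and Ifit3 of 1.64 (interval 1.14 to 2.37). The core ratio was 1.23 (interval 1.12 to 1.35), and 1.08 (0.978 to 1.19) without the 3 and 7 many-core cells, when only Ifit1 was called. These cells too were chosen by their core counts and were more in the Tsc1 RPE KO library, which lowers the ratio. The 10 NK cell markers stood at 864 and 1610 CPM in T cell-like cells, with 2 and 1 of them at 0, and their part in the ratio was not tested. At the finer resolution the 4 T cell-like clusters differed: the core ratio was 1.32 (1.12 to 1.55), 0.849 (0.708 to 1.02), 1.23 (1.03 to 1.47) and 2.0 (1.49 to 2.70). The third of these held 58 and 95 cells of the class, 17.3% and 25.8%, and without its top cell in each library its ratio was 2.01. Without its top cells the first had 1.16 (0.973 to 1.38), an interval that holds 1. In NK cell-like cells 4 of 12 measured genes were called higher and none lower, where 2.13% of 4041 genes were called higher and 2.97% lower. Irf9 had a ratio of 2.14 (interval 1.36 to 3.43), Isg15 of 2.12 (interval 1.35 to 3.37), Irf7 of 1.82 (interval 1.15 to 2.91) and Zbp1 of 1.67 (interval 1.10 to 2.55). The core ratio of 1.57 (1.30 to 1.90) was 1.44 without the cell with most core UMIs in each library. Of the NK cell-like core UMIs, 60 of the 245 Tsc1 RPE KO core UMIs came from 1 cell of 14567 UMIs, and Zbp1 without its top cell had a ratio of 1.38 and was no longer called. Without the single many-core cell, which lay in the Tsc1 flox library, the core ratio was 1.86 (1.53 to 2.27). That cell was chosen by its core count, so leaving it out had to raise the ratio.

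In fibroblast-like cells 5 of 23 measured genes were called higher and 1 lower, where 2.71% of 6428 genes were called higher and 4.15% lower. Ly6a went from 411 to 665 CPM, a ratio of 1.62 (interval 1.42 to 1.84). Ifit3b had a ratio of 2.07 (interval 1.30 to 3.31), Irf7 of 1.99 (interval 1.14 to 3.54), Isg15 of 1.52 (interval 1.16 to 1.99) and Ifit3 of 1.52 (interval 1.17 to 1.98). Stat2 was 1.77-fold lower (interval 1.08 to 3.0), from 53.0 to 29.9 CPM. The core ratio was 1.26 (interval 1.13 to 1.4), and the same, 1.26 (1.12 to 1.42), without the 5 and 5 many-core cells. Ifit3 sat at the edge of the fold, at 1.43 without its top cell, and without the many-core cells Ifi35 was called in its place. The 3 fibroblast-like clusters at the finer resolution had core ratios of 1.42 (1.25 to 1.62), 1.03 (0.815 to 1.29) and 0.829 (0.498 to 1.36), and the first held 138 of 266 and 97 of 176 cells. The median log2 ratio of the 23 genes was 0.26, and -0.03 over all measured genes.

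Ifit3 and Isg15 thus had ratios on opposite sides of 1 in different classes: 0.273 and 0.478 in classical monocyte-like cells, and 1.52 and 1.52 in fibroblast-like cells. With 1 library per genotype no test of that difference between classes could be made. Among the 6 large classes 35 of the 37 genes were measured in at least 1 and 8 in all 6, and Oasl1 and Ifi44 were measured in none. Endothelial-like cells, below the size for calls, had a core ratio of 2.40 (interval 1.72 to 3.39) with 34 of 125 Tsc1 RPE KO core UMIs from 1 cell, and 1.92 without the top cell of each library. The 8 fibroblast markers stood at 919.8 and 1824 CPM in this class, with 3 of them at 0 in both libraries, and their part in the ratio was not tested.

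Type I and type III interferons were hardly detected. Of 19 type I and type III interferon genes with a row, 18 had 0 UMIs in all cells of both libraries, and Ifnz had 1 and 2 UMIs, in fibroblast-like cells. Interferon gamma, Ifng, the type II interferon, was detected, with 365 and 296 UMIs. Of these, 363 came from NK cell-like cells of both libraries together, and 135 and 151 from T cell-like cells. The receptor gene Ifnar1 was at 78.6 and 50.1 CPM in classical monocyte-like cells, a ratio of 0.636 (interval 0.468 to 0.866) that was called lower, while fibroblast-like cells had 57.3 and 59.7 CPM. Ifnar2, its partner, stood at 169 and 160.5 CPM and at 125 and 135 CPM in the same classes. Of 14 measured genes of the receptor and signalling list in classical monocyte-like cells, 1 was called lower (Ifnar1), against 4.35% of all measured genes. Another 1 was called higher (Socs3, the feedback inhibitor, at 74.2 and 137 CPM), against 6.02%. Neither count is read as a result.

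Interferon-stimulated genes outside the list were called by the same rule. The shares of all measured genes given above for each class are the background. In classical monocyte-like cells 14 of 36 measured ones were called lower, against 4.35%, and none higher, among them Cxcl10, Slfn5, Irgm1 and Ms4a4c, with a median log2 ratio of -0.43. Fibroblast-like cells had 4 of 26 called higher (Cxcl10, Slfn5, Parp9 and Ifi30), against 2.71%, and none lower, NK cell-like cells 2 of 18 higher (Phf11b and Dtx3l), against 2.13%, and none lower. B cell-like cells had 5 of 28 lower, against 2.6%, and none higher. In T cell-like cells 1 of 41 was higher and 2 lower, against 3.06% and 1.37%, and in nonclassical monocyte-like cells 3 of 32 each way, against 5.59% higher and 3.99% lower. Nothing is read from these small counts. Of the sensors and adaptors, Ddx58 and Tmem173 were called lower among 7 measured in classical monocyte-like cells, and none were called in the other 5 large classes.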

How the data were processed

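Single-cell UMI counts, deposited by the authors as 1 matrix per library, were made with Cell Ranger 2.1.1 on mm10 per the submitters' processing notes, while a file header names version 4. Barcodes were kept above a UMI minimum (10% of percentile 99 among the top 3000, never under 500), with 200 genes or more and mitochondrial UMIs up to 20%, and doublets (7 and 23) found with scrublet were removed. Cells were clustered with scanpy 1.11.5 and leidenalg 0.10.2 (2000 variable genes without the 37, 30 components, 20 neighbours, resolution 1) and named by markers. UMIs were summed per class and library. CPM have exact Poisson intervals, ratios exact conditional binomial intervals, and shares Clopper-Pearson intervals, all at 95%. A count of 0 is read as an upper limit of 3 counts. All 38 genes are accounted for by role. By rule, class levels were given for the 12 genes and the 8 core genes with most UMIs (the large classes in the text, the small ones in the heat map) and ratios for up to 4 called genes each way; further genes with values, those outside the list included, were chosen after their values were seen. Calls were tested on simulated data with counting error alone. The spread over cells seen here was not simulated, so that test does not measure how reliable the calls are in these data. The genes and lists were chosen with earlier results of these data known. Alternatives are in the closing section. No test compares the genotypes, since each has 1 library. Python 3.11.15, numpy 2.4.6, scipy 1.17.1 and matplotlib 3.10.9 were used.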

Additional observations from a re-analysis of the deposited data

How the results depend on the processing

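No paired analysis was possible because each genotype has 1 library. Leaving out many-core cells, using the finer clusters one by one and leaving out the RPE-like barcode with leukocyte RNA were chosen after seeing the data. Of the values that answer a comparison, 209 stayed, 42 moved and 4 became weaker. Of those of single genes 142 stayed, 22 became weaker and 1 reversed. The reversed value was Ly6a in classical monocyte-like cells, at 0.446 with resolution 2. It came from 9 and 3 UMIs, and its interval of 0.0776 to 1.79 holds 1.

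Core levels at resolution 2 were 2067 and 1605 CPM in classical monocyte-like cells and 539.5 CPM in nonclassical monocyte-like cells of Tsc1 RPE KO. Without the cell with most core UMIs they were 1839 and 1089 CPM in classical monocyte-like, 443 CPM in nonclassical monocyte-like (Tsc1 RPE KO), 377 and 483 CPM in T cell-like, 215 and 309.6 CPM in NK cell-like and 596 CPM in fibroblast-like cells (Tsc1 flox). Without many-core cells they were 1095 and 941 CPM in classical monocyte-like, 431 CPM in nonclassical monocyte-like (Tsc1 RPE KO), 197 CPM in B cell-like (Tsc1 flox), 392 and 424 CPM in T cell-like, 215 CPM in NK cell-like (Tsc1 flox) and 536 and 676 CPM in fibroblast-like cells. As the mean of the cells' own CPM, Tsc1 RPE KO stood at 344 CPM in NK cell-like and 924 CPM in fibroblast-like cells.

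The core ratio of classical monocyte-like cells was 0.777 at resolution 2 and 0.859 without many-core cells, and that of NK cell-like cells 1.44 without the top cell and 1.48 without the top 1% of cells. With a fold of 2 the genes called lower were 9 in classical monocyte-like, 1 in nonclassical monocyte-like, 1 in B cell-like and 0 in fibroblast-like cells, and those called higher 0 in T cell-like, 2 in NK cell-like and 1 in fibroblast-like cells. Classical monocyte-like cells had 2 lower at resolution 2 and 1 without many-core cells. T cell-like cells had 4 higher with a minimum of 20 UMIs and 1 without many-core cells, and fibroblast-like cells 3 higher with doublets kept. Apart from resolution 2, the share of all measured genes called at these settings is not given. These counts are therefore not read as results. Many-core cells were 4.0% and 2.76% with at least 3 core genes, 1.11% and 0.595% with at least 5, and 14.03% and 14.7% unthinned. The top 10% of all cells held 68.4% and 61.8% of core UMIs after thinning, against 67.0% and 57.9% before. The cause of these changes was not tested beyond what each setting leaves out. Depth limits genes with few UMIs, rods and RPE most.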
